A study of Mus musculus with 21 samples.

Results

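Met, Pdgfd and Cntfr code for 3 proteins of growth factor signalling between cells, 2 receptors and 1 ligand. Their transcripts were followed over 7 groups of the stromal vascular fraction of mouse subcutaneous fat, from the fresh fraction to passaged cells. The 3 genes were taken by their symbols from a deposited table of 30961 gene models, and each symbol stood on 1 row. The stromal vascular fraction is the mixture of stromal, vascular and blood-borne cells left when digested fat is freed of its adipocytes. On day 0 the fraction studied here also held transcripts of epithelial marker genes. Here the inguinal fat, without its lymph nodes, came from female C57BL/6J mice aged 8 to 12 weeks. Primary culture (P0) was sampled on day 0, as the fresh fraction, and after 3, 7, 14, 21 and then 28 days. Day 0 is counted below among the days of primary culture. Between day 0 and any later day, plating and time in culture cannot be told apart. The P1 group was made of day 28 cells that were passaged and then kept in culture for a further 28 days. Between P1 and P0 day 28, passage and the further time in culture therefore cannot be told apart. All cultures were seeded at 5000 live cells per cm2 in Iscove's medium with 10% fetal bovine serum. As far as the labels tell, the medium was the same in every group after day 0. Each of the 7 groups had 3 RNA-seq libraries, but no label tells whether replicates were separate animals, pools or dishes. The p-values therefore speak of the spread among libraries, which may be technical.

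Cells use each of these proteins to receive or send a signal from outside. PDGF-D, the Pdgfd product, is a ligand that is secreted with an inhibitory domain, is activated when a protease such as a plasminogen activator cuts that domain off, and then signals mainly through the beta receptor of the platelet-derived growth factor family, which fat carries on mural cells and on stromal progenitors. Met is the receptor tyrosine kinase for hepatocyte growth factor. It is best known from epithelial cells, which receive the ligand from neighbouring stromal cells. Cntfr is the ligand-binding subunit of the receptor for ciliary neurotrophic factor. It is held to the membrane by a lipid anchor, has no kinase of its own, and signals through the shared subunits Lifr and Il6st to the JAK-STAT pathway.

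Over the whole culture the ligand transcript and the receptor transcripts moved in opposite directions. On day 28 against day 0, Pdgfd rose 2.04-fold, Met fell 7.23-fold and Cntfr fell 5.53-fold, in a comparison that called 60.3% of all tested gene models. Met then rose 2.52-fold in P1 against P0 day 28, where 14.7% were called, and Cntfr, which was above the floors of the deposited table in all 18 primary culture libraries, was above them in 0 of 3 P1 libraries. Pdgfd had its highest mean in P1, although the difference between P1 and P0 day 28 did not pass the test. The timing differed as well, in that Met stayed high through day 3 and reached its low level by day 14, while Cntfr was low by day 7.

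Values are given in scaled reads, the authors' library-scaled read numbers as recovered from the floors of the deposited log2 table, where 1 read was worth 0.742 to 1.67 scaled reads. The upper floor stands at 30 scaled reads and covers all lower values, and the lower floor, at 16, stands for 0 reads. Reads above the floor came to between 2496526 and 3824180 per library, and the correlation of replicates across gene models lay between 0.936 and 0.962. Symbols could be matched to their values by position for only part of the table. A symbol without this support is not thereby shown to be wrong. A check against the exon positions of the GENCODE M21 annotation (GRCm38) supported 542 of 16184 protein-coding symbols, among them Met with a posterior of 1.0000, Pdgfd with 0.9894 and Cntfr with 0.9999, and no value is given for a gene without such support. Tests were made with limma over 7765 gene models that were above the floor in at least 3 libraries, and a difference was called at a Benjamini-Hochberg adjusted p under 0.05. Many gene models changed, so the share called is given with each comparison. The median gene model above the floor in every library also moved, with a log2 fold change between -0.25 and -0.63 in comparisons with day 0, which became 0.24 to 0.31 after quantile normalization. Differences relative to that shift are therefore given for the main comparisons. The balance of directions moved with it. On day 28 against day 0, 1025 gene models were called higher and 3657 lower, but 2203 higher and 1929 lower after quantile normalization. In P1 against P0 day 28 the split was 144 higher and 999 lower, and 414 and 449 after quantile normalization. In bulk RNA, fewer cells of a type and less RNA per cell cannot be told apart.

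Pdgfd, the ligand gene (ENSMUSG00000032006), spans 210.3 kb on the plus strand of chromosome 9, chr9:6168584-6378850 in GRCm38, and its annotated exons cover 3154 bases and overlap no exon of another gene. The gene Ddi1 lies inside that span. The RefSeq window from 250 bases before to 50 bases after its start was searched on both strands for the GC box (GGGCGG), the TATA box (TATAAA), the AP-1 site (TGANTCA) and the STAT site (TTCNNNGAA). These short patterns are common, and 35.7%, 13.6%, 7.81% and 8.3% of 32851 such windows held them. In the Pdgfd window 1 TATA box was found, shown here in capitals because it was the only match of the 4 patterns. It lies at position -160 from the RefSeq start in GRCm38.p6, chr9:6168314-6168343 on the plus strand.
Pdgfd: ctggccagtttcTATAAAaccctgggagac

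Pdgfd rose through primary culture. On day 0 the 3 libraries had 1668.5, 1097 and 1245 scaled reads, and on day 3 they had 1011, 1265 and 1007. The ranges of these days overlapped, with the highest value in day 0 replicate 1. The values were 1981, 1596 and 1954.5 scaled reads on day 7, 2291, 1914 and 2223 on day 14, 2612, 2642 and 3118 on day 21, and 2310.0, 3017 and 2772 on day 28. From day 14 on every primary culture library was above all day 0 libraries, and day 14 lay below all libraries of day 21 and below those of day 28. In P1 the libraries had 3622.5, 3395 and 2989.9 scaled reads, which overlapped the day 21 and day 28 ranges at their upper ends. The mean log2 level was 10.36 ± 0.31 on day 0, 10.09 ± 0.19 on day 3, 10.84 ± 0.17 on day 7, 11.06 ± 0.14 on day 14, 11.44 ± 0.14 on day 21, 11.39 ± 0.20 on day 28 and 11.70 ± 0.14 in P1 (SD, n = 3 each). The rank order of group means ran from P1 through days 21, 28, 14, 7 and 0 to day 3, and of its 6 neighbouring steps the only one called was that between day 7 and day 0.

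**Figure D1:**
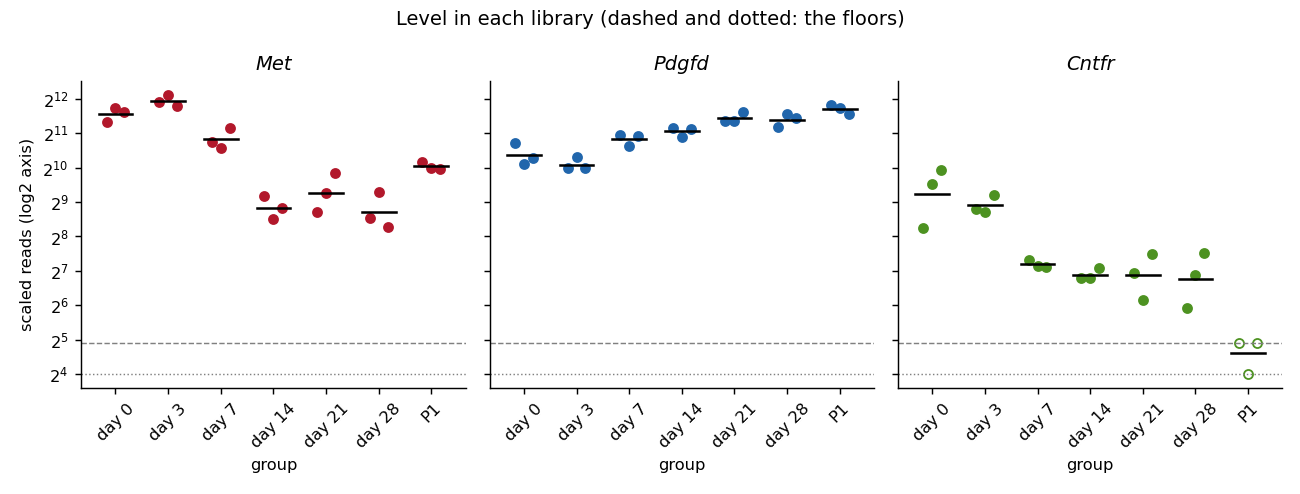
The level of Met, Pdgfd and Cntfr in each of 21 libraries is plotted in scaled reads on a log2 axis by group, with black bars at the mean of 3 libraries on the log2 scale, a dashed line at the upper floor of 30 and a dotted line at the lower floor of 16. Open points lie on a floor. Met is highest at days 0 and 3, Pdgfd is highest from day 21 on, and the 3 P1 points of Cntfr are all on the floors. The lengths of the genes are not corrected for, so heights compare groups within a gene and not genes with each other.

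Limma called Pdgfd higher than on day 0 from day 7 on. Against day 0, Pdgfd differed by -0.27 ± 0.15 (SE, log2 fold change) on day 3, where 51.3% of gene models were called, and the limma adjusted p was 0.145. This was within 0.01 log2 units of the shift of the median gene model. On day 7, with 54.4% called, it rose by 0.48 ± 0.15 (limma adjusted p = 0.0132), on day 14, with 65.3% called, by 0.70 ± 0.15 (0.000699), and on day 21, with 59.2% called, by 1.08 ± 0.15 (1.04e-05). On day 28 the rise was 1.03 ± 0.15 (limma adjusted p = 1.76e-05), or 1.36 relative to the shift, and only 13.2% of gene models were called higher. In the deposited scaling a rise was the less common direction, since 47.1% were called lower on that day. The step from day 3 to day 7 was the only one between successive later days that was called, with a rise of 0.75 ± 0.15 on day 7 against day 3 (limma adjusted p = 0.00423, 7.12% of gene models called). Day 14 differed from day 7 by 0.22 ± 0.15 (0.342, 24.3% called), day 21 from day 14 by 0.38 ± 0.15 (0.161, 6.3% called) and day 28 from day 21 by -0.05 ± 0.15 (1, 0.103% called), none of which passed the limma test. With the median scaling, day 14 was above day 7 by 0.48 and passed (limma adjusted p = 0.0294), and over 14 alternatives the limma adjusted p of that step lay between 0.0294 and 0.713. The call on day 7 against day 0 was lost without day 0 replicate 2 (0.35, limma adjusted p = 0.0798) and without day 7 replicate 1 (0.42, 0.0525), with a range of 7.06e-05 to 0.0798 over 14 alternatives.

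Pdgfd was high in passaged cells too. P1 was 2.53-fold higher than P0 day 0, with a log2 fold change of 1.34 ± 0.15 (limma adjusted p = 7.76e-07) or 1.97 relative to the shift, and in that comparison 8.14% of gene models were called higher and 57.3% lower. Against P0 day 28 the difference was 0.31 ± 0.15, with a 95% interval from -0.01 to 0.63 and a limma adjusted p of 0.202. After quantile normalization it was 0.56 (limma adjusted p = 0.0165) and with median scaling 0.64 (0.00823), in a range of 0.00823 to 0.483 over 14 alternatives, so this call depends on the scaling.

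Met, the receptor of hepatocyte growth factor (ENSMUSG00000009376), spans 110.2 kb on the plus strand of chromosome 6, chr6:17463800-17573980 in GRCm38, with 7679 exonic bases in 22 exon blocks and no overlapping gene. Its RefSeq start window held 3 GC boxes, 1 AP-1 site and no match to the other patterns. The AP-1 site is shown in capitals because it was the rarest of the patterns found beside the 3 genes. It lies at position -54 from the RefSeq start in GRCm38.p6, chr6:17463892-17463921 on the plus strand, and the match says nothing about binding in these cells.
Met: tgttgcccggcTGAGTCAcgggccgggcag

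Met was high on days 0 and 3 and fell after that. The libraries had 2545, 3404.5 and 3163 scaled reads on day 0 and 3801, 4420.0 and 3536 on day 3, so that every day 3 library was above every day 0 library. On day 7 they had 1716, 1525 and 2269, and on day 14 they had 578, 362 and 457. Each of these days lay wholly below the day before it. The values were 423, 609.9 and 912 scaled reads on day 21 and 371, 630.4 and 310.3 on day 28, and the ranges of days 14, 21 and 28 overlapped. In P1 the libraries had 1142, 1020.3 and 993.5 scaled reads, all above the 9 libraries of days 14 to 28 and below those of day 7. The mean log2 level was 11.56 ± 0.22 on day 0, 11.93 ± 0.16 on day 3, 10.82 ± 0.29 on day 7, 8.84 ± 0.34 on day 14, 9.27 ± 0.55 on day 21, 8.70 ± 0.53 on day 28 and 10.04 ± 0.11 in P1 (SD, n = 3 each). In rank order the group means ran from day 3 through days 0 and 7, P1 and days 21 and 14 to day 28. Day 3 and day 0 did not differ beyond the test's threshold, nor did P1 and day 21 (limma adjusted p = 0.0716, 13.8% of gene models called), day 21 and day 14, or day 14 and day 28 (limma adjusted p = 0.903, 6.53% called).

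Among successive days, the largest step of Met lay between day 7 and day 14. On day 14 it fell 3.96-fold against day 7, with a log2 fold change of -1.99 ± 0.27 (limma adjusted p = 4.69e-05), and 20% of gene models were called lower in that comparison. On day 7 against day 3 the difference was -1.11 ± 0.27 (limma adjusted p = 0.0164), where only 3.5% were called lower. That call was lost without day 3 replicate 2, day 7 replicate 1 or day 7 replicate 2, with limma adjusted p between 0.0576 and 0.0781, and over 14 alternatives it lay between 0.00889 and 0.0781. Day 3 against day 0 gave 0.37 ± 0.27 (limma adjusted p = 0.265). It was 0.63 relative to the shift of the median gene model, and passed the test after quantile normalization with 0.72 (limma adjusted p = 0.0301) and after median scaling with 0.68 (0.0307), while over 14 alternatives the limma adjusted p lay between 0.0301 and 0.534. Day 21 differed from day 14 by 0.43 ± 0.27 (limma adjusted p = 0.417) and day 28 from day 21 by -0.57 ± 0.27 (0.93).

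Against day 0, Met differed by -0.74 ± 0.27 on day 7 (limma adjusted p = 0.0293), a call that was lost after quantile normalization (-0.42, 0.197) and without any of 4 single libraries, with a range of 0.0196 to 0.197 over 14 alternatives. The later differences were larger. The log2 fold change of Met was -2.72 ± 0.27 on day 14 (limma adjusted p = 1.51e-07), -2.29 ± 0.27 on day 21 (1.38e-06) and -2.85 ± 0.27 on day 28 (8.78e-08). Relative to the shift of the median gene model these differences were -2.16, -1.95 and -2.52. Between 46.8% and 55.9% of gene models were called lower on these days, so that the direction was a common one in the deposited scaling.

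In the deposited scaling, Met alone among the 3 genes was called higher in passaged cells than in the primary culture before passage. Under both other scalings Met was called higher too, and so was Pdgfd. P1 was 2.52-fold above P0 day 28, with a log2 fold change of 1.33 ± 0.27 (95% interval 0.76 to 1.90, limma adjusted p = 0.00259) or 1.60 relative to the shift. In that comparison 1.85% of gene models were called higher and 12.9% lower. The P1 level stayed 2.87-fold below P0 day 0 (log2 fold change -1.52 ± 0.27, limma adjusted p = 0.000105, 65.4% of gene models called). It was above P0 day 14 by 1.20 (limma adjusted p = 0.00765, 9.17% called) and below P0 day 7 by 0.79 (0.033, 33.4% called). With the 6 libraries of P1 and P0 day 28 fitted on their own, the difference was the same and the limma adjusted p was 0.0778, the highest of 14 alternatives, whose lowest was 0.000186.

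**Figure D2:**
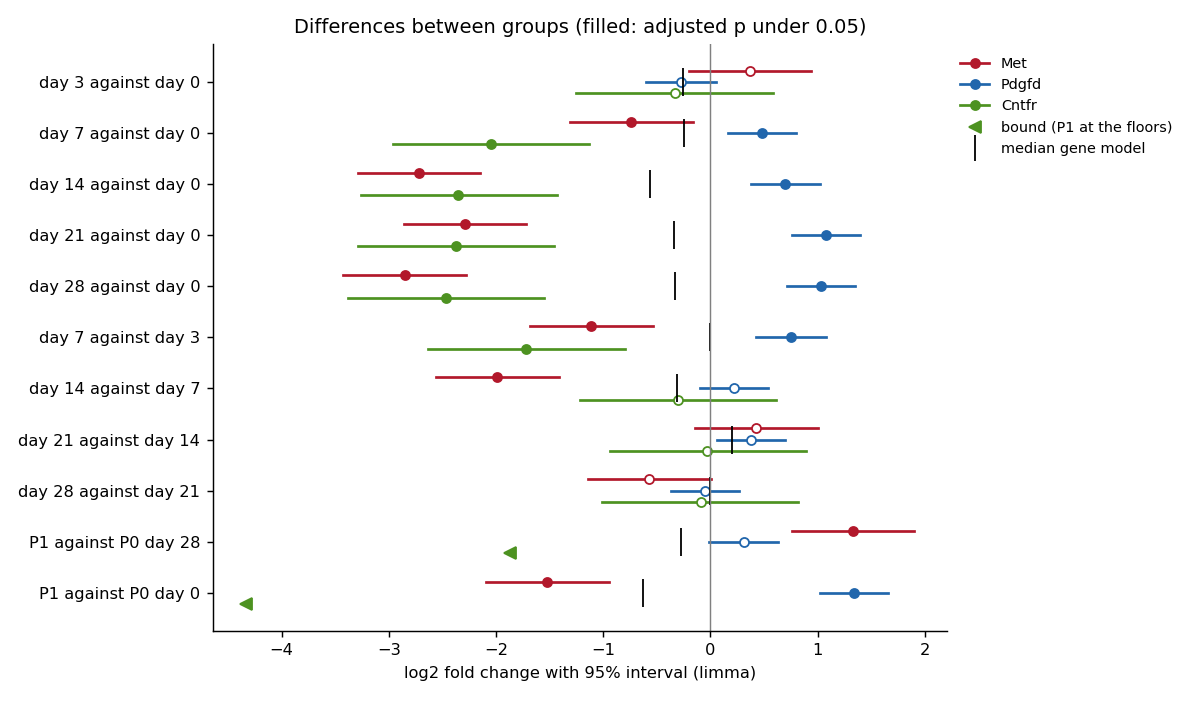
Log2 fold changes of Met, Pdgfd and Cntfr from limma are plotted for 11 comparisons of groups of 3 libraries, with 95% intervals as lines, filled points for an adjusted p under 0.05, and black ticks at the median gene model. Triangles mark the bounds for Cntfr in P1, where all 3 libraries were on the floors. Pdgfd lies right of 0 and both receptors left of it from day 7 against day 0 to day 28 against day 0, and Met alone is filled on the right for P1 against P0 day 28.

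Cntfr, the binding subunit for ciliary neurotrophic factor (ENSMUSG00000028444), spans 39.6 kb on the minus strand of chromosome 4, chr4:41657498-41697089 in GRCm38, and has 2782 exonic bases. RefSeq gives it 6 start windows, of which 4 held 1 or 2 GC boxes, in part the same bases, with no match to the other 3 patterns. A GC box at position 7 after a RefSeq start is shown in capitals as the kind of match that this gene shares with Met and not with Pdgfd, chr4:41695451-41695480 on the minus strand in GRCm38.p6. With a match in 35.7% of all windows, this pattern sets neither gene apart.
Cntfr: ccggtgcagagcGGGCGGcggcggcggcag

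Cntfr was highest on days 0 and 3 and uneven between the day 0 libraries. The 3 day 0 libraries had 304, 739.7 and 982 scaled reads, the first of them below all others of days 0 and 3. The day 3 libraries had 448, 420.3 and 589, inside the day 0 range. On day 7 the values were 161, 141 and 138 scaled reads, on day 14 they were 110.5, 112 and 136, on day 21 they were 123, 71.2 and 181, and on day 28 they were 61.2, 117 and 183. All 12 libraries of days 7 to 28 were below all 6 of days 0 and 3. The lowest read number behind them was 67, in day 28 replicate 1, against 185 to 804 reads on day 0. In P1, replicates 1 and 3 were on the upper floor, which stands for 40.5 and 32 reads in those libraries, and replicate 2 was on the floor for 0 reads. The mean log2 level was 9.24 ± 0.88 on day 0, 8.91 ± 0.26 on day 3, 7.19 ± 0.12 on day 7, 6.89 ± 0.17 on day 14, 6.87 ± 0.68 on day 21 and 6.77 ± 0.80 on day 28 (SD, n = 3 each). The order of group means was that of culture time, and only the steps from day 3 to day 7 and from day 28 to P1 were called.

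In a comparison that called 3.5% of gene models lower, Cntfr fell 3.29-fold on day 7 against day 3 (log2 fold change -1.72 ± 0.43, limma adjusted p = 0.0202). That call was lost without day 3 replicate 1 or 3 or day 7 replicate 2 or 3, with limma adjusted p from 0.0529 to 0.082, although the log2 fold change stayed between -1.81 and -1.57. Over 14 alternatives its limma adjusted p lay between 0.00877 and 0.082. Against day 0, the differences were -2.05 ± 0.43 on day 7 (limma adjusted p = 0.000695), -2.35 ± 0.43 on day 14 (0.000151), -2.37 ± 0.43 on day 21 (0.000154) and -2.47 ± 0.43 on day 28 (0.000103). Relative to the shift of the median gene model they lay between -2.14 and -1.79. Of all gene models, 54.4% were called on day 7 against day 0. On days 14, 21 and 28, 55.9%, 46.8% and 47.1% were called lower, so a fall was a common direction in the deposited scaling. From day 7 on no step passed the test, and the differences between successive days were -0.30, -0.03 and -0.09 with standard errors of 0.43 and limma adjusted p of 0.7, 1 and 1. On day 3 the difference from day 0 was -0.33 ± 0.43 (limma adjusted p = 0.549), and its 95% interval from -1.25 to 0.58 leaves room for a fall or a rise.

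In passaged cells Cntfr fell to the floors of the table, which in replicates 1 and 3 hide reads and in replicate 2 stand for 0 reads. Because all P1 libraries were on the floors, the fold changes are bounds computed against the upper floor of 30 scaled reads per library. By group means of log2 levels, P1 was at least 3.65-fold below P0 day 28. It was at least 20.1-fold below P0 day 0. The single libraries ran from 61.2 to 183 scaled reads on day 28 and from 304 to 982 on day 0. Limma, fitted with the floor values as they stand, gave log2 fold changes of -2.17 (adjusted p = 0.00228) and -4.63 (6.79e-08). In these comparisons 12.9% and 57.3% of gene models were called lower. With P1 and P0 day 28 fitted on their own, the limma adjusted p was 0.091, the highest of 14 alternatives, whose lowest was 0.000922. At this depth, Cntfr reads under those floors could not be read off in replicates 1 and 3.

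Taken over the 6 days of primary culture, the level of each gene changed in the limma F-test, with F = 55.6 for Met (adjusted p = 1.03e-08), 25.9 for Pdgfd (1.45e-06) and 13.4 for Cntfr (7.55e-05). That test called 71.4% of gene models. Over the 21 libraries the Pearson correlation of log2 levels was -0.845 between Pdgfd and Cntfr, -0.730 between Met and Pdgfd and 0.590 between Met and Cntfr. These coefficients describe libraries that fall into 7 groups and share 1 scaling. Between P0 day 28 and P1 the receptors moved in opposite directions, with Met higher and Cntfr lower in P1.

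The partners of the 3 proteins could be followed only in small part. Of 23 genes listed for hepatocyte growth factor and Met signalling and 14 for PDGF signalling, 0 had a symbol supported by position, so their ligand, proteases, receptors and adaptors are not described here. Of 32 genes of the cytokine family of ciliary neurotrophic factor, interleukin-6 and LIF, 1 was supported, Il11ra1, the binding subunit for interleukin-11 and a relative of Cntfr. Its reads are uncertain because near-identical copies exist in the mouse genome. Il11ra1 had 1524 to 1788 scaled reads on day 0, 593 to 632 on day 3, 810 to 986 on day 7, 1850 to 1954 on day 14, 3122 to 3992 on day 21, 2860 to 3724 on day 28 and 2072 to 2794 in P1. It was lowest on day 3 and highest from day 21, a course unlike that of Cntfr, although it lies 2.9 kb from it. Il11ra1 fell by 1.42 ± 0.12 log2 units on day 3 against day 0 (limma adjusted p = 5.13e-08) and rose by 0.96 ± 0.12 on day 28 against day 0 (4.02e-06), where Cntfr fell. In P1 against P0 day 28 it differed by -0.42 ± 0.12 (limma adjusted p = 0.0309), beside -0.27 for the median gene model, and it was called under neither other scaling (0.459 and 0.605).

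Among 47 genes shared downstream of growth factor receptors, 2 were supported and tested, and both were called lower in P1 than at P0 day 28, as were 12.9% of all gene models. Lyn, a kinase of the Src family best known from blood cells, had 794 to 1081 scaled reads in P1, against 2483 to 2998 at P0 day 28 (log2 fold change -1.53 ± 0.14, limma adjusted p = 1.2e-06). Rragd, a GTPase that brings the mTOR kinase complex to lysosomes, had 57.3 to 144 scaled reads in P1, against 385 to 615 at P0 day 28 (-2.34 ± 0.29, 3.2e-05). In both genes the groups did not overlap. Among 54 other receptors and ligands of growth factors, 3 were supported and tested, and all 3 were called higher on day 28 than on day 0, as were 13.2% of all gene models, and lower in P1 than at P0 day 28, the last for 1 of 3 under either other scaling. Tgfbr1, a signalling receptor for TGF-beta and that one, had 1723 to 1900 scaled reads on day 0, 3896 to 4083 on day 28 and 1837 to 2033 in P1. It rose by 1.13 ± 0.09 log2 units on day 28 against day 0 (limma adjusted p = 5.96e-09) and differed by -1.05 ± 0.09 in P1 against P0 day 28 (3.38e-07). Gdf6, a secreted ligand of the BMP family, was on the floors on day 0 and had 774 to 866 scaled reads on day 28 and 328 to 669 in P1, where it differed from P0 day 28 by -0.81 ± 0.26 (limma adjusted p = 0.0467). Musk, the receptor kinase of the neuromuscular junction, was low throughout, with 35.4 to 132 scaled reads on day 28 and all libraries of day 0 and of P1 at or under 30. None of these 6 genes was called higher in P1 than at P0 day 28 in any of the 3 scalings, as Met was in each.

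Markers of other cell types changed over the same days. Of 20 epithelial marker genes 6 were supported, and all 6 were called lower on day 28 than on day 0, as were 47.1% of all gene models. Their summed level was 33742 to 74393 scaled reads on day 0, 3540 to 3714 on day 3, 1640 to 2173 on day 7, 114 to 139 on day 14, 0 to 40 on day 21, 0 to 43 on day 28 and 0 to 89 in P1, where values on a floor count as 0. Most of the day 0 sum was Prlr, the prolactin receptor. Esrp1, an epithelial splicing regulator, and Grhl2, an epithelial transcription factor, lost most of their reads later than Prlr. Esrp1 had 2345 to 2715 scaled reads on day 0, 2023 to 2180 on day 3, 787 to 1048 on day 7 and 30 to 88 on day 14. Grhl2 had 885 to 1124 on day 0, 559 to 693 on day 3, 248 to 414 on day 7 and 30 to 51.2 on day 14. On day 3 against day 0 Esrp1 differed by -0.24 (limma adjusted p = 0.491) and Grhl2 by -0.66 (0.0305, and not called under either other scaling), while Met differed by 0.37. The other 4 markers were far lower by day 3. Prlr had 27341 to 66942 scaled reads on day 0 and 485 to 731 on day 3, and Cadps2 had 1036 to 2177 on day 0 and 265 to 299 on day 3. Hepacam2 had 420 to 634 and Aqp3 had 1417 to 1559 on day 0, and both were on the floors on day 3. In P1, Esrp1 and Grhl2 were at the floor for 0 reads in all 3 libraries, Hepacam2, Cadps2 and Aqp3 were at or under the upper floor, and Prlr reached at most 89. The part of epithelial cells in the levels of Met and of Cntfr was not tested.

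Stromal markers were mostly higher late in primary culture than on day 0, but their courses differed from one another. Of 15 genes that mark fibroblasts and mesenchymal progenitors 6 were supported, Col1a2, Osr2, Svep1, Col15a1, Mmp3 and Wnt2. Their summed level was 8540 to 9646 scaled reads on day 0, 19747 to 23615 on day 3, 70223 to 75885 on day 7, 182528 to 219174 on day 14, 168853 to 178690 on day 21, 141347 to 181151 on day 28 and 93055 to 128942 in P1. Most of this sum was Col1a2, a chain of type I collagen, with 178387 to 213095 scaled reads on day 14, so the sum mainly gives the course of that gene. On day 3 against day 0, Col1a2, Svep1 and Wnt2 were called higher, but Osr2 (-1.92, limma adjusted p = 0.000204) and Col15a1 (-1.64, 0.000198) lower. On day 7 against day 0, when Pdgfd was higher, Mmp3 (-1.58, limma adjusted p = 0.00139) and Osr2 (-1.43, 0.00244, not called after quantile normalization) were lower. On day 28 against day 0, 5 of the 6 were called higher and 0 lower, beside 13.2% and 47.1% of all gene models. In P1 against P0 day 28, 5 of 6 were called lower and 0 higher, beside 12.9% and 1.85% of all gene models, but 1 lower after quantile normalization and 0 with median scaling, while Pdgfd was not called lower in any of these. Leukocyte markers, 5 of 20 supported, summed to 2191 to 2526 scaled reads on day 0, 1258 to 1411 on day 3, 1296 to 1469 on day 7, 1440 to 2180 on day 14, 4283 to 5472 on day 21, 5275 to 7458 on day 28 and 1125 to 1389 in P1, and the B cell gene Pax5 was on the floors in all 21 libraries. The late sum leaned on Atp6v0d2, at the floor for 0 reads on day 0 and with 1919 to 3414 scaled reads on day 28. On day 28 against day 0, 3 of 4 tested leukocyte markers were called higher, beside 13.2% of all gene models. Lyn was not called (0.31, limma adjusted p = 0.0676), but under either other scaling all 4 were. Of 11 markers of mural cells, which carry PDGF receptors, 0 were supported. Endothelial, adipocyte and cardiac muscle markers had 1 supported gene each. Aqp7, a channel of capillary endothelium and of adipocytes, had 1597 to 1675 scaled reads on day 0 and at most 44 after it. The adipocyte hormone gene Lep had 37 to 87 on day 0 and was on the floors after it. Cavin4, a muscle caveola protein, was on the floors on day 0 and in P1 and had 242 to 623 on day 28. The 4 supported cell cycle genes summed to 3794 to 4263 scaled reads on day 3, against 916 to 1117 on day 0. The part of these cell types in the levels of Pdgfd, Met and Cntfr was not tested.

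**Figure D3:**
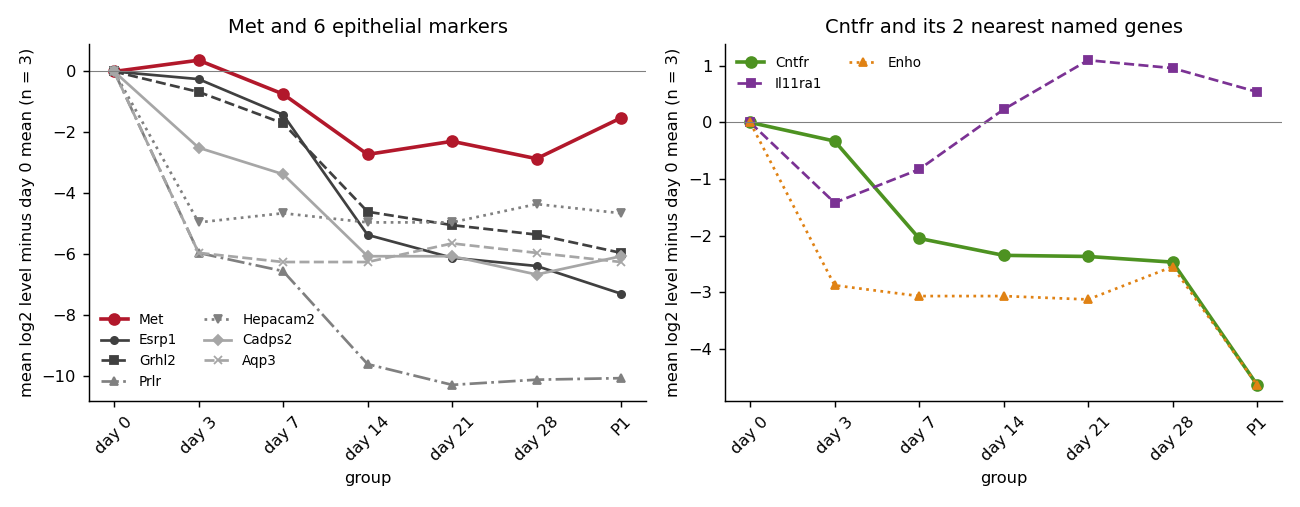
The mean log2 level of 3 libraries, less the day 0 mean of the same gene, is plotted by group for Met with 6 epithelial markers (left) and for Cntfr with its 2 nearest genes of supported symbol, Il11ra1 and Enho (right). Values on a floor enter as the floor, so falls of the markers and of Cntfr in P1 are understated. Met rises again in P1 while the markers stay low, and Il11ra1 rises after day 3 while Cntfr falls.

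Genes with a similar course were sought among the 443 other tested genes of supported symbol, by the Pearson correlation of log2 levels over 21 libraries. These libraries share groups and scaling, and the coefficients are descriptions. Nearest to Pdgfd were Sgce, a sarcoglycan of the cell membrane (0.960), Fam221b (0.915) and Ankrd46 (0.910), and the epithelial factor Grhl2 was the most opposite (-0.907). Sgce had 672 to 952 scaled reads on day 0, 2666 to 2895 on day 28 and 3071 to 4125 in P1, which is also its highest group. Nearest to Met were Tmem245 (0.895), the tetraspanin Tspan12 (0.884) and the cohesin acetyltransferase Esco1 (0.879), and the carboxypeptidase Cpq was the most opposite (-0.902). In P1 against P0 day 28 the log2 fold changes were 0.16 for Tmem245, or 0.49 with median scaling, -0.03 for Tspan12 and 0.00 for Esco1. Nearest to Cntfr were Nfx1 (0.906), the chromatin remodeller Chd7 (0.90) and the endoplasmic reticulum receptor Retreg1 (0.889), and the most opposite was Pdgfd itself (-0.845). In P1 against P0 day 28 the log2 fold changes were -0.60 for Nfx1, -1.35 for Chd7 and -2.23 for Retreg1, which had 1 P1 library on the floor. Since P1 and day 28 libraries entered the choice of these genes, their differences are given without a test.

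The nearest supported genes along the chromosomes did not share 1 course with the 3 genes. Beside Met, Cav1, which codes for the coat protein of caveolae and lies 122.3 kb before it, had 9926 to 15555 scaled reads in P1, against 4442 to 6462 at P0 day 28. Cav1 thus rose there as Met did (log2 fold change 1.16, limma adjusted p = 9.08e-05), and it too was lower on day 28 than on day 0 (-2.11, 5.79e-09). It differed from Met on day 3, when it fell by 1.5 against day 0 (limma adjusted p = 6.43e-07). Capza2, 62.3 kb after Met, codes for a subunit of the actin capping protein, and its level differed by 0.14 on day 28 against day 0 (limma adjusted p = 0.0936), or by 0.61 after quantile normalization, when it was called (1.4e-08). Beside Pdgfd, Casp12, 795.6 kb before it, rose by 1.12 on day 28 against day 0 (limma adjusted p = 3.36e-05), and Dync2h1, a motor of cilia 549.7 kb after it, fell by 1.94 (1.7e-05). Beside Cntfr, Enho, 17.2 kb before it, codes for the peptide adropin and had 53.4 to 111 scaled reads in P1, against 214 to 391 at P0 day 28. Enho had already fallen by 2.88 on day 3 against day 0 (limma adjusted p = 9.24e-08), when Cntfr was not called.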

How the data were processed

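RNA of the stromal vascular fraction was sequenced in 21 libraries, 3 for each of 7 groups. Per the labels' protocols, RNA came from either of 2 kits, the second for small samples, and 15 ng of total RNA was amplified to cDNA with a SMART-Seq kit, which does not mark strand. The sources used here do not tell which library had which RNA kit, nor the aligner, counter, annotation or scaling. Per the submitters' processing notes the genome build was GRCm39. Log2 values were deposited by the authors, centred on 0 for each gene model. Values repeat at a pair of floors whose ratio is that of 30 to 16.

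Library factors and levels were recovered from these floors, for 30465 of 30961 gene models. Of 14444 values above the floor and under 200 scaled reads, 99.87% were whole reads within 0.1 read. Levels assume that the floors are 16 and 30, while differences hold without that assumption. Reads under the floor are missing, so full depth is unknown, no counting interval is given and no count test was run. Symbols were matched to GENCODE M21 exons with a hidden Markov model of the offset along each chromosome, in steps of 100 bases up to 1.6 Mb. The limits for keeping a symbol were an offset of 1000 bases and a posterior of 0.9. Of the kept genes 85.1% were above the floor, against 43.8% of the others. Part of that gap can be built in, since detection placed the offsets. No coordinates were converted between builds. Sequences are from RefSeq (GRCm38.p6).

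Limma 3.58.1 (R 4.3.3) with a variance trend was fitted to the recovered log2 levels of 7765 gene models, with no pseudocount, all 21 libraries in 1 fit and groups as the only factor. P-values were adjusted by Benjamini-Hochberg within each comparison. The recovery, the symbol check and the tests were also run on simulated data. The same floors and the same kind of offsets were built into these data, so those assumptions themselves were not tested. Python 3.11.15, numpy 2.4.6 and matplotlib 3.10.9 were used for other steps. The 3 genes, the gene lists and the rules were chosen with earlier results of these data known. Beside the 3 genes the text names tested list members with supported symbols, the 3 genes nearest and the 1 most opposite in course, and the nearest supported gene on each side. Alternatives were quantile and median scaling, other filters, no variance trend, 1 floor, the compared groups alone, a replicate block and each library left out.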

Additional observations from a re-analysis of the deposited data

How the results depend on the processing

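No value of Met, Pdgfd or Cntfr that was called changed its direction. With 1 library left out, 238 of 252 values kept their side of the threshold, 13 lost the call and 1 gained it, and under the other settings 271 of 285 kept it, 9 lost the call and 5 gained it. Among values called in neither fit the sign changed in 7 with a library left out and in 4 under other settings, as for Pdgfd at day 3 against day 0 (0.10 after quantile normalization) and Cntfr in that comparison (0.10). The limma values that crossed the threshold under other settings were these. After quantile normalization, Met had 0.72 (adjusted p = 0.0301) at day 3 against day 0 and -0.42 (0.197) at day 7 against day 0, and Pdgfd had 0.56 (0.0165) in P1 against P0 day 28. With median scaling, Met had 0.68 (0.0307) and -0.41 (0.179) in the same comparisons, and Pdgfd had 0.48 (0.0294) at day 14 against day 7 and 0.64 (0.00823) in P1 against P0 day 28. With no filter on low values, more gene models entered the adjustment, and Met had -0.74 (0.0743) at day 7 against day 0 and -1.11 (0.061) at day 7 against day 3, and Cntfr had -1.72 (0.0669) at day 7 against day 3. With the compared groups alone, which leaves 6 libraries, Pdgfd had 0.48 (0.0765) at day 7 against day 0 and 0.75 (0.0539) at day 7 against day 3, and in P1 against P0 day 28 Met had 1.33 (0.0778) and Cntfr -2.17 (0.091), fitted with its floor values. Leaving out 1 library gave log2 fold changes between -0.90 and -0.61 for Met at day 7 against day 0, between -1.27 and -0.98 for Met at day 7 against day 3, between -0.41 and -0.10 for Pdgfd at day 3 against day 0, between 0.35 and 0.65 for Pdgfd at day 7 against day 0 and between -1.81 and -1.57 for Cntfr at day 7 against day 3. The one gained call was that of Pdgfd at day 3 against day 0 without day 0 replicate 2 (-0.41, 0.0458). For Met at day 7 against day 0 the call was lost without day 0 replicate 2 (-0.65, 0.0949) or 3 (-0.70, 0.0753) or day 7 replicate 1 (-0.70, 0.0757) or 2 (-0.61, 0.109).

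The count of gene models called at day 21 against day 14 was 489, and 309 with no filter, 151 with the compared groups alone and 280 to 879 with 1 library left out, the highest without day 21 replicate 1. At day 28 against day 21 it was 8, and 13 after either scaling, 15 with the compared groups alone and 8 to 17 with 1 library left out. In P1 against P0 day 28 it was 1143, and 528 with the compared groups alone and 747 to 1071 with 1 library left out, the lowest without day 28 replicate 3. The causes were not tested.

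Whether replicate numbers pair the libraries is not settled, since the labels do not say what a number marks. Over 63 pairs of libraries with the same number the correlation of deviations from the group means lay between -0.26 and 0.32. Its median was 0.01, and it was over 0.1 in 13 of these pairs. For 126 pairs with different numbers the median was -0.01, and 11 of 21 libraries correlated best with their own number. With the replicate number as a block, the limma adjusted p in P1 against P0 day 28 was 0.00494 for Met, 0.235 for Pdgfd and 0.00101 for Cntfr, the block changed no call of the 3 genes, and the count for that comparison was 1080.

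The values are limited by floors that hide levels under 18 to 40.5 reads, by 3 libraries a group of unknown origin, and by a check of symbols that depends on an annotation of another build. Cntfr had only 67 to 184 reads per library from day 7 to day 28.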
